A study of Rattus norvegicus with 2 samples.

Results

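Genes of the thyroid axis were read in hypothalamic RNA of the spontaneously hypertensive rat (SHR), an inbred line whose blood pressure rises with age, in a pool of each sex. They were 9 genes, among 39500 genes and unnamed transcripts on the array: Trh, Trhr, Tshb, Cga, Dio2, Dio3, Thra, Thrb and Ttr. They were chosen by name for their place in the axis, with the signals and the male minus female differences of these arrays already known, so those values are given as a description. They had 12 probes in all, found by matching RefSeq accessions of the array design to rat gene symbols. In the GRCr8 annotation Trh lies on chromosome 4, Trhr on 7, Tshb on 2, Cga on 5, Dio2 and Dio3 on 6, Thra on 10, Thrb on 15 and Ttr on 18. The male pool held RNA of 5 male SHR and the female pool RNA of 5 female SHR, all 9 weeks old, with 100 ng of RNA from each rat. Per the labels, the rats fed freely, were killed with ether and then decapitated, and the hypothalamic blocks were cut out by 1 operator. The sources used here do not give the cycle stage of the females, and both pools were of this hypertensive strain. Each pool was hybridised to 1 single-colour microarray, so no test was possible, and a difference between sexes cannot be told apart from a difference between these pools.

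Thyrotropin-releasing hormone (TRH) is made in neurons of the paraventricular nucleus and acts through its receptor on thyrotrope cells of the pituitary. These cells secrete thyrotropin (TSH), built from an alpha subunit, shared with the gonadotropins, and its own beta subunit, and TSH makes the thyroid gland release its hormones. Within the brain, deiodinase enzymes switch thyroid hormone on or off, nuclear receptors read it out, and the hormone in turn lowers TRH and TSH production. The pars tuberalis, a sheet of pituitary tissue on the median eminence at the base of the hypothalamus, also makes TSH and passes seasonal light signals to the hypothalamus in mammals.

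Signals are given in scanner units, after background subtraction by the scanner software, and a difference is the log2 signal of the male pool minus that of the female pool, each divided by the 75th percentile of its array, 2203 units for males and 2254 units for females. The scanner software rated 71.6% of rat transcript spots as well above background for the male pool and 73.0% for the female pool, and precision is limited by there being 1 array per pool. Hypothalamic transcripts were strong on both arrays: Pmch, Avp and Oxt, which encode melanin-concentrating hormone, vasopressin and oxytocin, stood at percentile 98.7 or higher of all rat probes in each pool. Sim1, a transcription factor of the paraventricular nucleus, was well above background in both pools on its brighter probe, whereas Otp was so in the female pool only. Y-linked Eif2s3y cleared background in males only, while Ddx3y, also Y-linked, cleared it in both, with 471 units in the male pool and 164 units in the female pool. The spread of repeat spots gives a technical SD for a difference on 1 spot, which covers printing and scanning but neither animals nor arrays.

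All 9 genes were well above background in both pools. Tshb and Cga, the subunit genes of TSH, were higher in the male pool by 2-fold or more, and Dio3, the hormone-inactivating deiodinase gene, was lower there by 2-fold or more. The other 6, namely Trh, Trhr, Dio2, Thra, Thrb and Ttr, lay within 1.5-fold. So did 96.6% of all genes and transcripts well above background on both arrays. Among 26109 genes and transcripts measured on 1 array or both, 2.54% were higher in males and 1.64% lower by 2-fold or more, 4.17% in either direction, against 2 and 1 of the 9 genes. With the normexp background correction, a model that keeps dim signals positive, the shares were 1.19% higher and 0.755% lower, 1.95% in either direction, against 2 and 0 of the 9. With spots in patches left out (patches are explained beside Cga), they were 0.482% and 0.143%, 0.625% in either direction, against 1 and 1 of the 8 genes with a value. Since the list was drawn up with these differences known, nothing is read from these shares. The median difference over the 9 genes was -0.016, against -0.016 over the 24140 genes and transcripts well above background on both arrays, of which 44.95% had a positive difference. In bulk tissue, fewer cells of a type and less RNA per cell cannot be told apart.

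**Figure D1:**
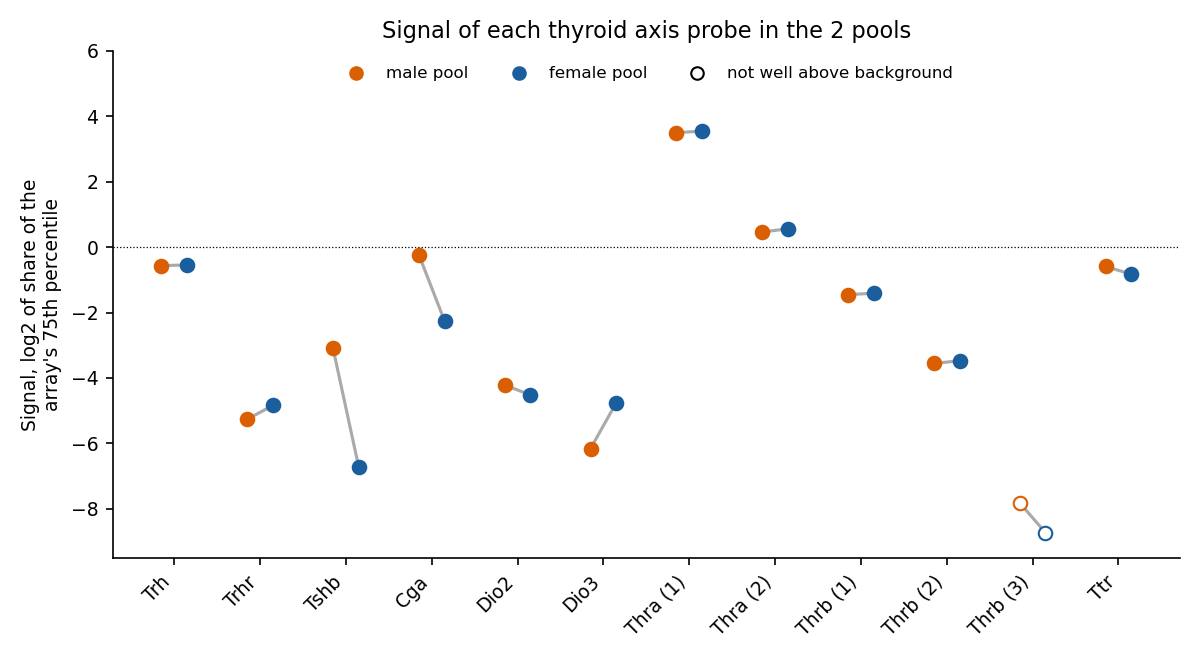
Signal of each probe of the 9 genes (vertical axis, log2 of the signal over the 75th percentile of its array), with the male pool left and the female pool right in each pair; each point is 1 array, and open points are not well above background. The steepest lines are those of Tshb, 257 units in the male pool against 21.2 units in the female pool, and Cga, 1870 units in the male pool against 469 units in the female pool, while Dio3 slopes the other way.

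Trh, which encodes the TRH precursor, had nearly the same level in the pools. Its only spot gave 1490 units in the male pool, against 1541 units in the female pool, and its rank was at percentile 85.6 of all rat probes on both arrays. The difference of -0.016 was smaller than the technical SD of 0.090. Trhr, which encodes the pituitary-type TRH receptor that is also found in brain neurons, was dim, with 57.5 units in the male pool and 78.8 units in the female pool. The Trhr difference of -0.42 exceeded the technical SD of 0.36 at this signal, and it was -0.22 with the normexp background correction. None of the 18 spots around Trhr differed 2-fold.

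TSH subunit genes showed the widest differences of the list. Tshb, the beta subunit that gives the hormone its specificity, had 257 units in the male pool, against 21.2 units in the female pool. The female value stood not far above the lowest signal counted as well above background on that array, 12.9 units, so the fold rests on a female signal close to background. By rank, Tshb was at percentile 67.0 of probes on the male array and at percentile 37.8 on the female array. The difference was 3.64, or 12.4-fold, with a technical SD of 0.36, and it was 3.49-fold with normexp. The fold is thus uncertain in size. The direction held in each setting tried, but all settings reprocess the same spot, so they could not test the direction.

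Cga, the alpha subunit shared by TSH and the gonadotropins, had 1870 units in the male pool, against 469 units in the female pool. Its difference was 2.03, or 4.08-fold, with a technical SD of 0.090, and normexp left it at 3.60-fold. Unlike Tshb, Cga was measured far above background on both arrays, at percentile 87.5 on the male array and percentile 73.5 on the female array.

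Because each subunit gene was read from 1 spot, the spots around it were inspected. The Tshb spot lay at row 262 and column 147 in a quiet area, where 0 of the 18 spots lying nearest, leaving out spots of Tshb itself, and 0 of the nearest 50, differed 2-fold. The median difference of those 18 spots was -0.08, and none was above 0.03. Its signal was 236 units larger on the male array, whereas the 5 dim spots among the 18 (under 100 units on the dimmer array) were all lower there, with excesses from -15.2 to -2.85 units. The local background was 32 units in the male pool and 31 units in the female pool. The Cga spot lay at row 236 in the outermost column of the array, where 3 of the 18 nearest spots were also past 2-fold in the same direction, which counts as a patch (2 or more of the 18 differing together). The dim spots among the 18 gained at most 158 units on the male array, against 1401 units for Cga itself. With 158 units taken off the male Cga signal, a setting chosen after the positions were seen, the gene was still 3.74-fold higher in the male pool. Around Cga the other 15 spots stayed within 2-fold, and the median difference of the 18 was -0.04.

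**Figure D2:**
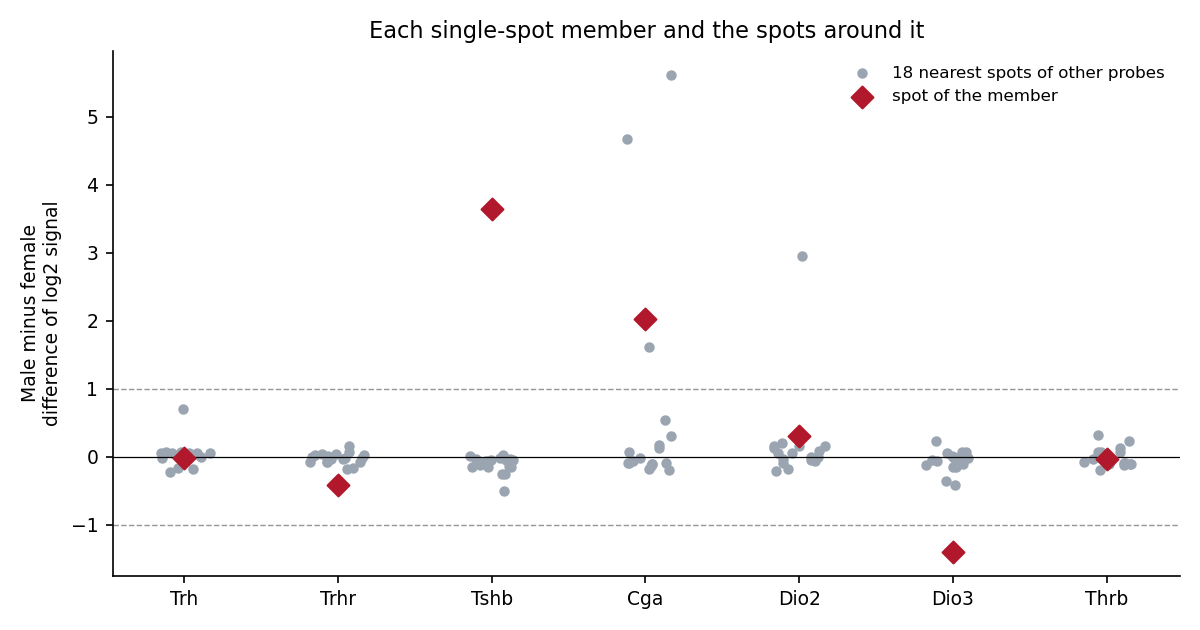
Male minus female difference of log2 signal (vertical axis) for the spot of each gene read from 1 spot on its brightest probe (diamonds) and for the 18 spots that lie nearest to it (grey points); dashed lines mark 2-fold. Tshb at 3.64 and Dio3 at -1.40 stand clear of quiet surroundings, whereas 3 spots around Cga, and 1 around Dio2, were past 2-fold as well.

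Promoter sequence is shown for the TSH subunit genes, which differed together, and for Trh, which did not. Windows of 250 bases before the RefSeq gene start (build GRCr8, from the reference strain and not from SHR) were found for 8 of the 9 genes. Capitals mark matches, on either strand, to the TATA box with letters TATAAA, the thyroid hormone response motif with letters AGGTCA, the site of the pituitary factor Pit-1 with letters TATNCAT, the cyclic AMP response element with letters TGACGTCA, or its variant known from Cga with letters TGATGTCA.
Tshb, chr2:192918055-192918304, minus strand: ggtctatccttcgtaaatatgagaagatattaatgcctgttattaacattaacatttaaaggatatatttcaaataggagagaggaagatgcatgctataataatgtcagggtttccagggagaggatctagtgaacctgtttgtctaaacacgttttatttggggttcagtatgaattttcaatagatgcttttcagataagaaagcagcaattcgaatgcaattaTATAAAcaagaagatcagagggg
Cga, chr5:54283090-54283339, plus strand: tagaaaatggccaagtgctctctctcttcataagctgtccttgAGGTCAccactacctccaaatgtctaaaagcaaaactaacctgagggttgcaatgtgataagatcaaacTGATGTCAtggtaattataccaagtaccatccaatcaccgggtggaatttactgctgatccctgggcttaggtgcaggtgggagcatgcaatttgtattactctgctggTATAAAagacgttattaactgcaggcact
Trh, chr4:126301763-126302012, minus strand: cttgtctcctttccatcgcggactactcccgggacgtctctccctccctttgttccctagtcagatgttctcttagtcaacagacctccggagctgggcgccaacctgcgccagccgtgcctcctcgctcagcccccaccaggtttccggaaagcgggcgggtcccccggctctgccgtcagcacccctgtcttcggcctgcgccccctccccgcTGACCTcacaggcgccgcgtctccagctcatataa
The Tshb and Cga windows each held the TATA box, which 12.9% of all 33469 promoter windows have, at 23 to 18 bases before the start of Tshb and at 29 to 24 bases before that of Cga. The Cga window also held AGGTCA, found in 14.1% of windows, and TGATGTCA, found in 3.80%. In the Trh window, AGGTCA lay on the opposite strand, 35 to 30 bases before the start, where it reads TGACCT. The Trh window ended in the letters tataa, so a TATAAA running past its edge could not be seen. The Pit-1 site, found in 8.73% of windows, and TGACGTCA, found in 1.59%, had no match in these 3 windows. Such matches describe letters only, not binding.

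Other genes of the anterior pituitary lobe, the pars distalis, gave mixed differences. Gh1 and Fshb, which encode growth hormone and the follicle-stimulating hormone subunit, were not well above background in either pool, at 3.80 and 12.4 units in the male pool and 3.23 and 8.17 units in the female pool. Prl, the prolactin gene, had 3.31 units in the male pool, not well above background, against 122 units in the female pool, and so was lower in males by at least 7.91-fold, on a spot in a patch. Lhb, the beta subunit gene of luteinising hormone, was at 0.35, with 230 units in the male pool and 184 units in the female pool. Pomc, made in corticotropes and in arcuate neurons alike, was at 0.24. Lhx4, a developmental regulator gene, was higher in males by at least 14.6-fold, also on a spot in a patch. Of 14 pars distalis genes matched to probes, 6 cleared background on both arrays, 4 with a positive and 2 with a negative difference, and their median was 0.07. Their summed signal was 231% of the 75th percentile in the male pool, against 200% in the female pool. Pomc alone gave 178% in the male pool, against 151% in the female pool, and the other 5 genes summed to 52.3% in the male pool, against 48.7% in the female pool.

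Genes linked to the pars tuberalis were within 2-fold. Mtnr1a, which encodes the melatonin receptor that defines this tissue, had 22.9 units in the male pool and 21.5 units in the female pool. Its difference was 0.12 with a technical SD of 0.36. Both Mtnr1a values were close to the lowest signals counted as well above background, 15.1 units in the male pool and 12.9 units in the female pool. Eya3, which drives the beta subunit gene in the pars tuberalis of sheep, was at 0.00. Leaving out Tshb and Cga, 9 such genes cleared background on both arrays; 3 differences were positive and 6 negative, with a median of -0.10. The neuropeptide gene Nmu, at -0.48 and read inside a patch, and the dopamine receptor gene Drd1, at -0.23, were the farthest from 0. Summed, the 9 genes reached 661% of the 75th percentile in the male pool, against 703% in the female pool. Of this, Tef alone gave 287% in the male pool, against 311% in the female pool. The dim Mtnr1a signal adds little to the sum, so the sum does not measure the amount of this tissue. The part that the amount of pituitary tissue in each block had in the Tshb and Cga differences was not tested.

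The deiodinase genes had differences of opposite sign. Dio2, whose enzyme activates thyroxine to triiodothyronine in tanycytes and astrocytes, had 118 units in the male pool and 98.4 units in the female pool. Its difference of 0.30 was within the technical SD of 0.36, though above 0.17, the technical SD from repeat spots outside patches. That smaller SD also applied to Trhr, Tshb and Dio3 at their signals, although their differences are set against the larger one. Dio3, an imprinted gene whose enzyme inactivates both hormones, had 30.9 units in the male pool, against 83.4 units in the female pool. The Dio3 difference was -1.40, or 2.64-fold lower in the male pool, 3.86 times the technical SD. By rank among all rat probes, the measure given for Trh, Tshb and Cga, the male minus female percentile of Dio3 was -11.4. A second ranking kept only probes well above background on 1 array or both. There Dio3 was at percentile 13.7 on the male array and percentile 30.6 on the female array, a wider difference of -16.9. Its spot lay at row 180 and column 160, where none of the 18 or the 50 nearest spots differed 2-fold and the dim spots among the 18 were at most 9.44 units higher on the female array, against 52.6 units for Dio3. With 9.44 units taken off, it was still lower in males by 2.34-fold. With normexp it was only 1.37-fold lower, at -0.46, so its place past 2-fold rested on how the background was handled. Dio1, the liver and kidney type of activating deiodinase, was not well above background in either pool.

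Tanycytes line the floor of the ventricle within the hypothalamus and hold much of its Dio2. Of their other genes, 10 cleared background on both arrays, 7 with a positive and 3 with a negative difference, and the median was 0.13. The Wnt inhibitor gene Frzb was at 0.49, and Vim, the intermediate filament gene, was at 0.46. Rax, a defining tanycyte transcription factor, was not well above background in either pool, and Gpr50 cleared background in females only. The summed signal of the 10 genes was 299% of the 75th percentile in the male pool, against 282% in the female pool, and their part in the Dio2 difference was not tested.

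Receptor genes for thyroid hormone were close between the pools. Thra encodes the main thyroid hormone receptor of the brain, together with a splice form that does not bind the hormone. Its brighter probe, read from 9 spots after 1 with an outlier flag was left out, gave 24867 ± 643 units in the male pool and 26309 ± 588 units in the female pool (SD over 9 spots each). All 9 spots were slightly lower in the male pool after scaling, from -0.06 to -0.02, with a mean difference of -0.05. Its second probe, designed to another RefSeq transcript of the gene, had 3024 units in the male pool and 3328 units in the female pool, a difference of -0.10. Thrb encodes the receptor that carries much of the feedback on Trh and Tshb. Its brightest probe had 804 units in the male pool and 848 units in the female pool, at -0.04, and the second had 187 units in the male pool and 203 units in the female pool, at -0.08, both within their technical SDs of 0.090 and 0.16. The Thrb sign changed with normexp, to 0.0027. The remaining Thrb probe was not well above background in either pool, so no fold is given. These receptor differences are small beside the spread of all genes, of which 5% lay below -0.28.

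Ttr encodes transthyretin, a carrier of thyroxine in blood and cerebrospinal fluid that the choroid plexus makes in large amounts. Over 8 spots, after 2 with an outlier flag were left out, it had 1461 ± 61.5 units in the male pool and 1271 ± 39.8 units in the female pool (SD over 8 spots each). Spots spanned 1383 to 1551 units in the male pool and 1219 to 1323 units in the female pool, without overlap. Every spot was higher in the male pool, by 0.13 to 0.34, with a mean difference of 0.23, about 7.39 times the technical SD of the mean. That spread is of spots on 1 array each, not of animals.

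Of 15 other choroid plexus genes that cleared background on both arrays, 12 differences were positive and 3 negative, against 44.95% positive over all genes, with a median of 0.24, and of 0.12 with normexp. Of the 12, 4 were no larger than their technical SD, as were all 3 negative ones. In the choroid plexus list, 4 genes were past 2-fold, all higher in males: Igf2, an insulin-like growth factor gene, at 1.41, its binding protein gene Igfbp2 at 1.02, with 1 of its 2 spots in a patch, Steap1 at 1.65, read wholly inside a patch, and the potassium channel gene Kcnj13, by at least 3.82-fold and well above background in males only. With normexp, 2 of these 4 stayed past 2-fold, Igf2 and Igfbp2, while Steap1 was at 0.70 and Kcnj13 at 0.67. Over all genes 2.54% were that much higher in males, and 1.19% with normexp. Kl, in contrast to Kcnj13, cleared background in females only, with 5.39 units in the male pool and 17.7 units in the female pool. Among other genes of this list, Folr1 and Clic6 were at 0.25 and 0.44, and Sostdc1 was at -0.20. Cldn2 and Slc4a5, a tight junction gene and a bicarbonate transporter gene, were not well above background in either pool. Summed, the 15 genes reached 841% of the 75th percentile in the male pool, against 617% in the female pool. Of this, Igf2 alone gave 220% in the male pool, against 83.0% in the female pool. The other 14 genes summed to 621% in the male pool, against 534% in the female pool. In the meningeal fibroblast list, all 15 genes that cleared background on both arrays had positive differences, with a median of 1.20, and of 0.85 with normexp. In this list 8 genes were past 2-fold, and 7 with normexp, where Col3a1 was at 0.85, against the same shares over all genes. These 8 were Igf2, the matrix protein gene Ogn at 1.82 and the transporter gene Slc6a13 at 1.62, each on 1 spot in a patch, the transporter gene Slc22a6 at 1.48, the collagen genes Col1a1, Col1a2 and Col3a1 at 1.20 to 1.29, and Ptgds. Of these, Ptgds, a prostaglandin synthase gene also expressed in choroid plexus, was at 1.52 over 10 spots, with 50152 units in the male pool and 17910 units in the female pool. Their summed signal was 2910% of the 75th percentile in the male pool, against 1086% in the female pool. Ptgds alone gave 2277% in the male pool, against 794% in the female pool, and the other 14 genes summed to 633% in the male pool, against 291% in the female pool. The part of these cells in the Ttr difference was not tested.

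**Figure D3:**
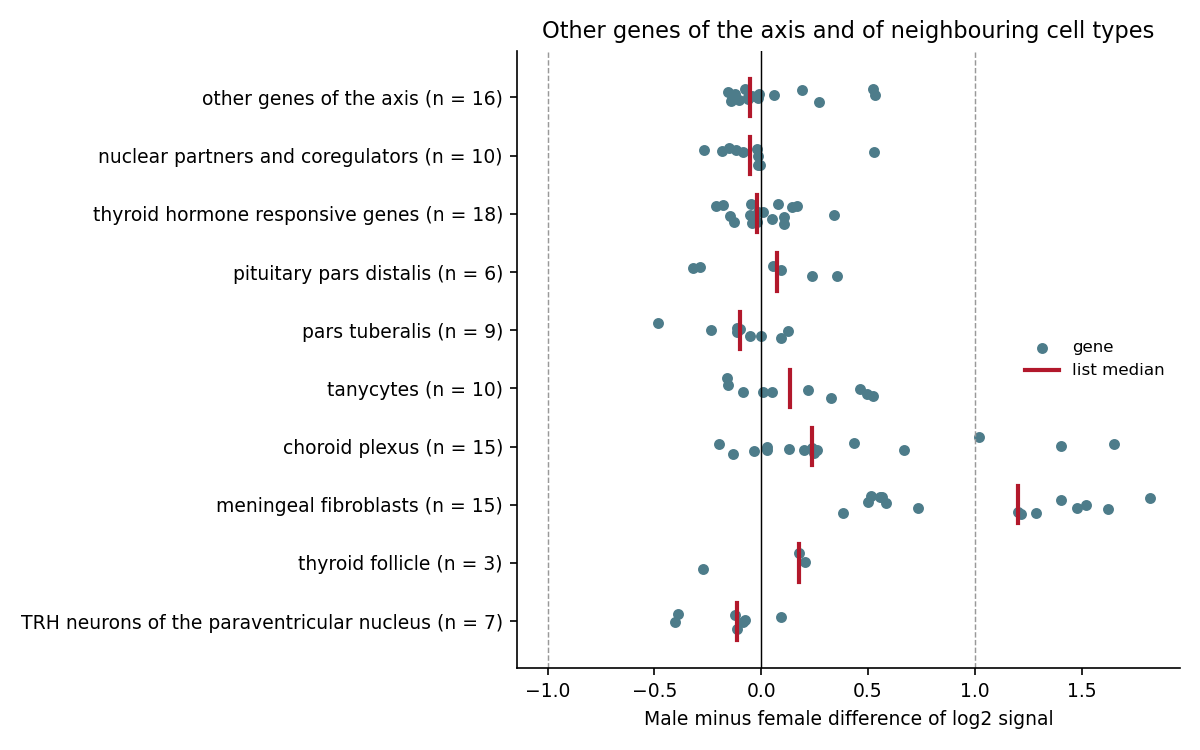
Male minus female difference of log2 signal (horizontal axis) for each gene well above background on both arrays (points), by gene list and without the 9 genes themselves; red bars are list medians and dashed lines mark 2-fold. Lists of the axis itself centre near 0, the choroid plexus list at 0.24 and the meningeal fibroblast list at 1.20.

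Genes acting around the hormones lay within 2-fold where they were measured on both arrays. Of 19 other genes of the axis matched to probes, covering TRH processing and breakdown, hormone transport and binding, 16 cleared background on both arrays; 5 differences were positive and 11 negative, with a median of -0.05. None was 2-fold apart, against the background of 4.17% of genes and transcripts in either direction. For 16 genes such a count is near that share, so nothing is read from it. Thrsp, a thyroid hormone responsive gene of fat synthesis, had 365 units in the male pool and 258 units in the female pool, a difference of 0.53. Slco1c1 and Slco1a4, thyroid hormone transporter genes of brain capillaries, were at 0.19 and 0.27. Trhde, whose ectoenzyme degrades TRH, was at -0.14, and Pcsk1, Pcsk2 and Pam, which process the TRH precursor among others, were at -0.12, -0.10 and -0.14. Crym, a cytosolic binding protein of thyroid hormone, was at -0.15. Tshr, the TSH receptor gene, was not well above background in either pool, at 3.51 units in the male pool and 3.81 units in the female pool.

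Partner and coregulator genes of the receptors lay within 2-fold. Of 10 on both arrays, 1 difference was positive and 9 were negative, 6 of them no larger than their technical SD, and the median was -0.05; the retinoid receptor gene Rxrg was at -0.27 and, on a spot in a patch, the histone deacetylase gene Hdac3 was at 0.53. Among thyroid hormone responsive genes, 18 cleared background on both arrays, 8 with a positive and 10 with a negative difference, and the median was -0.02. Hr and Klf9, transcriptional regulators induced by the hormone in brain, were at 0.11 and -0.13. Odf4 was higher in males by at least 2.99-fold, near background and read inside a patch, and was at 0.35 with normexp.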

How the data were processed

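Each pool was measured on 1 single-colour (Cy3) Agilent array. Per the file headers, the array files hold the processed spot intensity, background-subtracted by Feature Extraction 11.5.1.1 (protocol GE1_1105_Oct12, design build rn4), with no scaling between arrays, whereas the submitters' processing notes name version 9.1. The deposited series matrix holds the same intensity times 1 constant per array, as its values showed. Spots flagged as outliers on either array (664 of 58717) were left out. Each array's 75th percentile was subtracted from its log2 signals, which were averaged per probe. RefSeq accessions were matched to symbols of GRCr8 (46.3% of probes); the brightest probe stood for a gene. A probe counted as well above background when over 50% of its spots did, and a dim side was raised to the lowest such signal, giving "at least" a fold. The size threshold was 2-fold. A patch is a spot with at least 2 of the 18 nearest measured spots 2-fold apart in 1 direction. Normexp was run on spot and background medians in place of means, with an offset of 50 units that shrinks differences of dim genes (limma 3.58.1, R 4.3.3, Python 3.11.15). The calculations were tested on simulated data. Members, gene lists and rules were chosen with earlier results of these data known. Named were all 9 members, list genes at least 2-fold apart or else the 2 farthest apart, and the genes nearest in level, beside list genes whose role in the axis was named after their values were seen; some list genes are not reported here.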

Additional observations from a re-analysis of the deposited data

How the results depend on the processing

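With spots in patches left out, 1 of the 9 genes was higher in males by 2-fold or more, since the only Cga spot was then gone. With normexp, 0 of the 9 were lower in males by 2-fold or more, since Dio3 was at -0.46. Both counts were the same under median centring, quantile normalization, the deposited matrix values, no filter on dim probes and the mean over probes. Over all genes, normexp gave 311 higher and 197 lower in males by that size, against 662 and 428, and leaving out patches gave 111 and 33. Trh, Trhr, Tshb, Cga, Dio2, Dio3, Thra and Ttr kept their sign under each alternative that gave a value. Thrb changed sign with normexp, to 0.0027. The alternatives reprocess the same spots, so a kept sign is no independent support for a direction. Taking the largest local excess off Tshb, Cga and Dio3 was chosen after seeing the data and changed no count. For Tshb that excess was 0 units, so this setting could not change its difference. The median of the meningeal fibroblast list was 0.85 with normexp, against 1.20. No paired analysis was possible because each sex had 1 pool and no replicate numbers. No sample could be left out.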

Other observations

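Of 7 genes tied to TRH neurons of the paraventricular nucleus and well above background on both arrays, 1 difference was positive and 6 were negative, with a median of -0.12, against 44.95% positive over all genes. Of the 6, 4 were no larger than their technical SD, and 1 of these, Mc4r, turned positive with normexp, at 0.04. Crh, the stress axis hormone gene, had 395 units in the male pool and 534 units in the female pool. The Crh difference was -0.40 for a spot inside a patch, and -0.54 by its second probe. Sim1 was at -0.39 on its brighter probe, just past its technical SD of 0.36, and at -0.22 with normexp. The second Sim1 probe was not well above background in either pool. Among genes of thyroid follicle cells, Pax8, Duox2 and Slc26a4 were not well above background in either pool. Nkx2-1, which is also a hypothalamic transcription factor, was at -0.27, and the iodide transporter gene Slc5a5 was at 0.21.

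The named genes nearest to each member in level were found by Euclidean distance of log2 signal over the 2 arrays, outside patches. For Tshb they were Cpxm2, Cd74 and Cpz, at distances of 1.48, 1.62 and 1.73, so no gene lay close, and Cpxm2 was at 1.67. For Cga they were Hspb1, Aebp1 and Serping1, the first at 0.82 and the next at 0.98. Dio3 had Zbtb16 at 0.54. For the others the nearest gene lay at 0.0049 to 0.051: Spata2L for Trh, Lrp2 for Trhr, Ssc5d for Dio2, Gabarapl2 for Thra, Ggcx for Thrb and Arid3a for Ttr. Levels on 2 arrays do not show a shared pattern, and signals of different probes depend on the probe.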
